A study of Saccharomyces cerevisiae with 8 samples.

Results

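The 56 genes described here encode the proteins of the small (40S) subunit of the cytosolic ribosome of Saccharomyces cerevisiae, from RPS0A to RPS31. They were chosen by name from the 6534 genes of the count table and not by a cut on measured values, though with earlier results known. All 56 passed the filter on low counts. They form 24 pairs of gene copies (paralogs, A and B) and 8 single-copy genes, among them RPS2, RPS3, RPS20 and RPS31. On genome build R64 they lie on 14 chromosomes, 36 have an intron and 20 have none.

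The study measured polyadenylated RNA by sequencing in exponentially growing yeast. The libraries were labelled as strain BMA41, wild type or mub1Δ. The study's stated purpose was to find the source of the mub1Δ phenotype. Mub1 is an adaptor that brings substrates to a ubiquitin ligase, and Calcofluor white (CFW) is a dye that binds chitin and stresses the cell wall. There were 4 groups of 2 libraries: wild type without CFW, wild type with 20 µg/ml CFW, mub1Δ without CFW and mub1Δ with 20 µg/ml CFW. All 8 libraries came from cells grown for 5 hours in the same defined medium. The labels do not say that the 2 libraries of a group came from separate cultures, so the p-values below speak only of how far these libraries scatter, which may be technical.

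Total counts ran from 24147195 to 31677985 per library. MUB1 itself had counts of 1068, 1066, 1042 and 1226 in the libraries labelled wild type, and of 1, 0, 0 and 1 in those labelled mub1Δ. The 2 genotypes also differed at marker genes that the labels do not mention. LEU2 had counts of 0 to 2 in wild type and 4933 to 7122 in mub1Δ, URA3 0 to 1 against 5950 to 6648, MET17 0 to 1 against 2621 to 4538, and TRP1 909 to 989 against 0. The labels give both genotypes the same strain name, yet by these counts the libraries do not differ at MUB1 alone. How far the backgrounds of the strains differ beyond these markers was not tested. Loss of MUB1 and these other strain differences cannot be told apart in any comparison of genotypes. The 7 a-cell markers were all lower in mub1Δ in both media, with a summed level in CPM (counts scaled to a common library size) of 1101 to 1719 in wild type and 632.3 to 737.2 in mub1Δ, and none was at 0. The 4 alpha-cell markers measured summed to 61.62 to 71.27 CPM in wild type and 47.57 to 53.99 in mub1Δ. In both media the estimate for mub1Δ was above 0 for 1 of them, MF(ALPHA)1, and below 0 for the other 3. The part of these differences in the results was not tested.

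Ribosomal protein genes are among the most strongly transcribed genes of growing yeast, and the nutrient-sensing kinase complex TORC1 sets their output through the regulators Rap1, Fhl1, Ifh1 and Sfp1. Their mRNAs usually rise and fall together with growth and stress. Many are kept as paralog pairs that encode near-identical proteins, and some proteins of the small subunit hold down the mRNA of their own gene or of one copy. Rps28 does so on RPS28B, whose mRNA it binds to start decay with Edc3; Rps14 blocks splicing of RPS14B, and Rps9 splicing of RPS9A.

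The pair whose balance differed most between the genotypes was RPS28A and RPS28B, which encode a protein near the mRNA exit of the subunit. RPS28A (YOR167C) lies on the minus strand at chrXV:648804-649007 and RPS28B (YLR264W) on the plus strand at chrXII:673131-673334, each a single coding exon of 204 bases. The reference coding sequences (RefSeq, R64) are shown because they tell how far reads could separate the copies. Capitals mark the 24 positions at which the copies differ.
RPS28A coding: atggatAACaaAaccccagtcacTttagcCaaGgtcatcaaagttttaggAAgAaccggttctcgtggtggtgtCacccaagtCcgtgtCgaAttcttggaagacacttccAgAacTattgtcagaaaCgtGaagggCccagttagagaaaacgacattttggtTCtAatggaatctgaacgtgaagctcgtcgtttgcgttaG
RPS28B coding: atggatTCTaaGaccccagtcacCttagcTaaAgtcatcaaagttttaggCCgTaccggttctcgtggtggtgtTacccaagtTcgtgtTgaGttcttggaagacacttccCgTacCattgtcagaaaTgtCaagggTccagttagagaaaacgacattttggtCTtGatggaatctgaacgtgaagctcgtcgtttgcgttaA
The copies were identical at 88.2% of positions, and no window of 150 bases, the length of a sequencing read here, was shared between them.

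The regions before these genes are shown as well, and whether they bear on the balance of the copies was not tested. Each run of 300 bases starts 400 bases before the first coding base and is read in the direction of the gene, at chrXV:649108-649407 (minus strand) for RPS28A and chrXII:672731-673030 (plus strand) for RPS28B. Capitals mark the match to the motif of the factor Abf1, here on the opposite strand.
RPS28A upstream: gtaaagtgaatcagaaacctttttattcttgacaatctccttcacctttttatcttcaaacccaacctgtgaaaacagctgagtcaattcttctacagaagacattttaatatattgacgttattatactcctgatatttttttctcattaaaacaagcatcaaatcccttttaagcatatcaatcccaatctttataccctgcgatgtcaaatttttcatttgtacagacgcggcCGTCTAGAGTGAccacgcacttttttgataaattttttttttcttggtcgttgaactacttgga
RPS28B upstream: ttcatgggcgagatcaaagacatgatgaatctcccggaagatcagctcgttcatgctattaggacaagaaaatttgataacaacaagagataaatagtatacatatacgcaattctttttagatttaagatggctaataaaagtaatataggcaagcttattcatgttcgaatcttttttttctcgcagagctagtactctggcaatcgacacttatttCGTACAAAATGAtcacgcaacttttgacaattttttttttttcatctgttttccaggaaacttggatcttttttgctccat
Both copies thus had an Abf1 motif match, 152 bases before the first coding base in RPS28A and 169 in RPS28B. Neither had a match to the motif of Rap1 (ACCCNNACA) or of Reb1 (TTACCCG) in 500 bases. On both strands, the Abf1 motif occurred in the 500 bases before 12.5% of the members and 9.55% of all 6002 protein-coding genes. The Rap1 motif occurred before 32.1% of the members and 5.48% of all genes, and the Reb1 motif before 3.57% and 10.1%. A match is a description of letters and does not show that the factor binds.

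Together, the 56 genes took 4.72% and 5.108% of the counts in the wild-type libraries without CFW and 5.745% and 4.639% in those with CFW. In mub1Δ they took 3.945% and 4.056% without CFW and 5.219% and 4.9% with it. The lowest shares were thus the 2 mub1Δ libraries without CFW, and the 2 wild-type libraries with CFW were the farthest apart of any group. The Wilson 95% interval of each share was no wider than 0.0098 percentage points to either side and covers counting error only. The 81 genes of the large subunit and stalk moved in the same way, from 4.812% to 6.869%, and the ratio of small to large stayed between 0.7987 and 0.8364. In bulk RNA, fewer cells of a kind and less RNA per cell cannot be told apart.

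**Figure D1:**
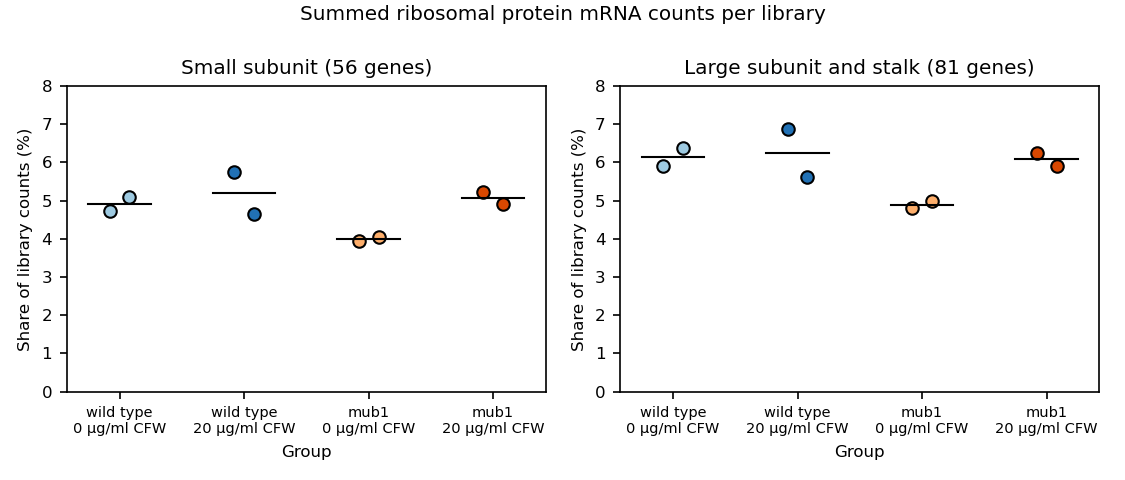
Share of each library's counts taken by the 56 small-subunit genes (left) and the 81 large-subunit and stalk genes (right), in percent; each point is 1 library and each line the mean of the 2 libraries of a group. The mub1Δ libraries without CFW are lowest in both panels, at 3.945% and 4.056% for the small subunit, and the wild-type libraries with CFW lie apart, at 5.745% and 4.639%.

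The members also differed together between libraries of the same group. In wild type with CFW, 55 of 56 were higher in replicate 1, by a median of 0.33 on the log2 scale, while the median of all genes differed by 0.01. In wild type without CFW, all 56 were higher in replicate 2, with a median difference of 0.13. In mub1Δ, 53 of 56 were higher in replicate 2 without CFW (median 0.08) and 53 of 56 in replicate 1 with CFW (median difference, replicate 2 minus replicate 1, -0.10). The counts of calls below are therefore given without each library that moved them.

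Without CFW, most members had lower mRNA levels in mub1Δ than in wild type. In the quasi-likelihood F test of edgeR, with p-values adjusted by the Benjamini-Hochberg method across 5954 genes, 23 members fell, 2 rose and 31 did not pass the threshold of 0.05. Calls were made for 42.9% of all genes tested (22.1% higher and 20.8% lower) and for 44.6% of the members, so the share called was near the background, while the direction was mostly downward. The median log2 fold change was -0.31 over the members and -0.01 over all genes, and 53 of 56 estimates were below 0. The libraries of the 2 groups did not overlap for 50 of 56 members and for 77.5% of all genes. The count of 25 became 13 without wild-type replicate 1 and 5 without wild-type replicate 2, both without CFW, and 6 and 12 without mub1Δ replicates 1 and 2 without CFW. Without wild-type replicate 1 or replicate 2 with CFW, neither of which is in the 2 groups compared, it was 45 each time. Those libraries enter through the shared estimate of spread, the filter and the scaling.

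The members that fell included RPS0B, RPS2, RPS9B, RPS10B, RPS12, RPS14A, RPS15, RPS16A, RPS18A, RPS19A, RPS20, RPS21A, RPS21B, RPS22B, RPS25B, RPS26A, RPS27A, RPS28A, RPS29A, RPS29B, RPS30B and RPS31. Over the 23, log2 fold changes ran from -0.69 (RPS28A) to -0.33, and the 2 that rose were RPS9A and RPS28B. Of the 8 single-copy genes, 5 fell and the median was -0.41; of the 48 genes in pairs, 18 fell, 2 rose and the median was -0.28. Of the 22 genes whose proteins sit in the head of the subunit 12 fell and 1 rose (median -0.36), and of the 34 of the body and platform 11 fell and 1 rose (median -0.28). Genes with an intron (12 of 36 fell, 1 rose, median -0.30) and without one (11 of 20 fell, 1 rose, median -0.35) had similar medians. None of these differences between classes was tested. Of the large-subunit genes, 32 of 81 fell, 3 rose and the median was -0.30.

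With CFW in both strains, few members differed between the genotypes. RPS1A, RPS9A, RPS14B and RPS28B rose in mub1Δ, RPS28A and RPS30B fell, and 50 members did not pass. The share called was 10.7%, against 35.9% of all genes (18.6% higher and 17.3% lower), and the median log2 fold change was -0.05 over the members and -0.01 over all genes. The libraries of the 2 groups did not overlap for 14 of 56 members and for 66.2% of all genes. Without wild-type replicate 1 with CFW, 16 members passed, 14 of them higher, and the median was 0.11; without wild-type replicate 2 with CFW, 26 passed, 23 of them lower, and the median was -0.21. Without mub1Δ replicate 1 or 2 with CFW, 3 and 2 passed.

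Fewer members were called for CFW in wild type than in mub1Δ. No member passed the edgeR test of that difference given below, and both counts moved with the libraries left out. In wild type, RPS9A and RPS14B rose, none fell and 54 did not pass; 3.57% of members and 19% of all genes were called (10.3% higher and 8.7% lower), and the medians were 0.09 and -0.01. In wild type, 15 members passed without replicate 1 with CFW, 13 of them lower (median -0.12), and 24 passed without replicate 2 with CFW, all higher (median 0.23). Without wild-type replicate 1 or 2 lacking CFW, 1 passed each time. The libraries of the 2 wild-type groups did not overlap for 7 of 56 members and for 58.8% of all genes.

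In mub1Δ with CFW against mub1Δ without it, 18 members rose, none fell and 38 did not pass; 32.1% of members were called, against 27.7% of all genes (13.8% higher and 14% lower). All 56 estimates were above 0, the median was 0.30 against 0.00 over all genes, and the libraries did not overlap for 55 of 56 members and 71.6% of all genes. The risers were RPS1A, RPS6B, RPS9A, RPS10A, RPS10B, RPS12, RPS14B, RPS21B, RPS22B, RPS24B, RPS25B, RPS28A, RPS28B, RPS29A, RPS29B, RPS30A, RPS30B and RPS31, at log2 fold changes of 0.32 to 0.86. The count of 18 became 10 without wild-type replicate 1 or 2 lacking CFW and 50 without wild-type replicate 1 or 2 with CFW. It became 3 and 8 without mub1Δ replicates 1 and 2 lacking CFW, and 4 without mub1Δ replicate 1 or 2 with CFW. The large-subunit genes gave 21 of 81 higher, none lower and a median of 0.28.

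The difference between the CFW responses of the 2 strains was tested as an interaction. No member passed by edgeR, 6 had an unadjusted p under 0.05 and 2 passed by DESeq2, while 2.5% of all genes were called by edgeR (0.89% higher and 1.61% lower). The estimate was above 0, meaning a more positive CFW response in mub1Δ, for 55 of 56 members, with a median of 0.27 against -0.00 over all genes. Without wild-type replicate 1 with CFW, 40 members passed and the median was 0.43; without wild-type replicate 2 with CFW, 1 passed and the median was 0.10. The comparisons share libraries, so their directions are not separate evidence.

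**Figure D2:**
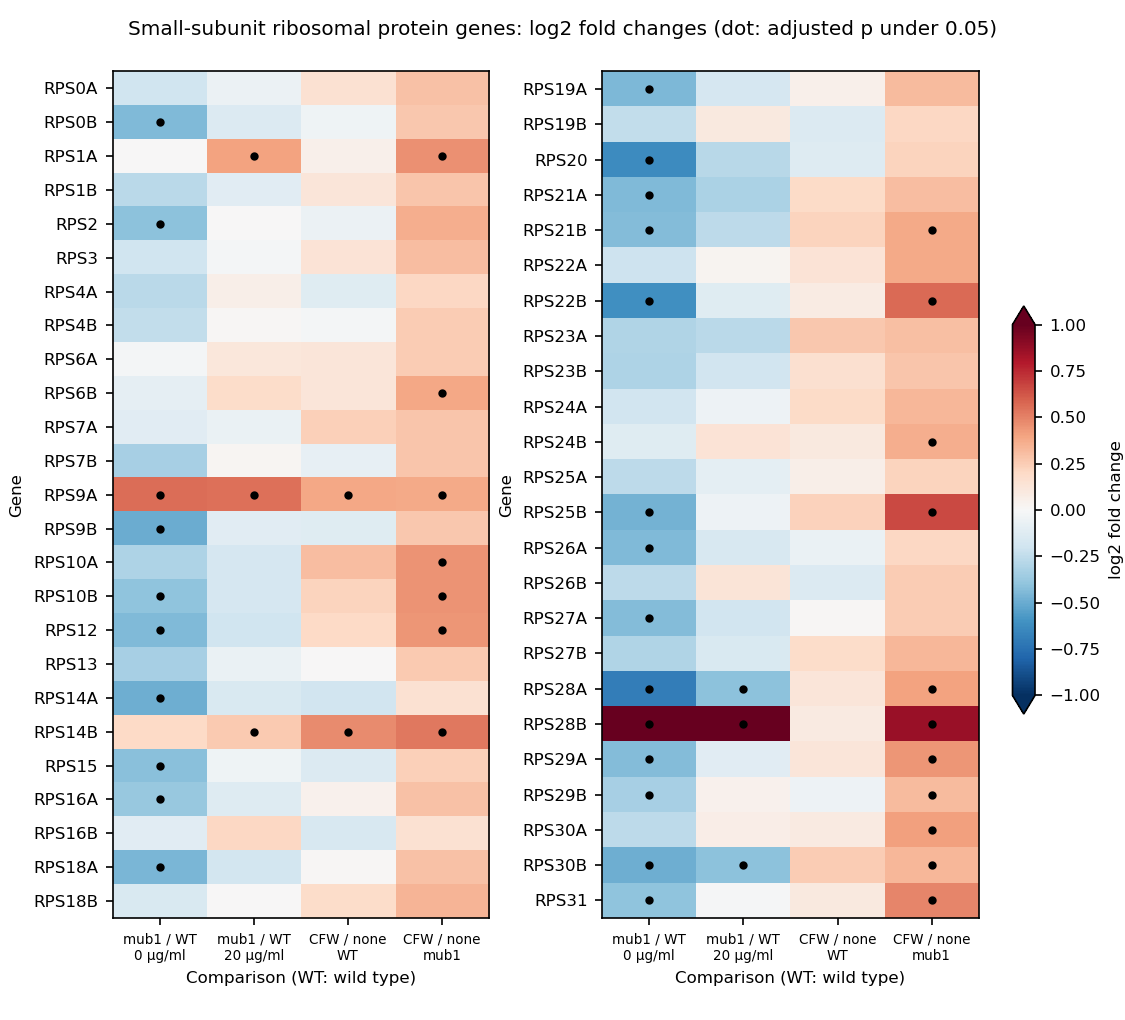
Log2 fold change of 49 of the members (rows) in the 4 comparisons of 2 groups (columns), with colour limited to the range from -1 to 1 and a black dot where the adjusted p was under 0.05. The column for mub1Δ against wild type without CFW is mostly blue, with 22 of those drawn lower, and the column for CFW in mub1Δ is mostly red, with 18 higher; RPS28B lies beyond the colour range.

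RPS28B stood apart from the other members and from its own paralog. Its level was 29.27 and 33.49 CPM in wild type without CFW and 39.08 and 27.88 with CFW, against 64.39 and 75.54 in mub1Δ without CFW and 132.9 and 121.5 with it. Every mub1Δ library was above every wild-type library, and within mub1Δ every library with CFW was above those without. In mub1Δ RPS28B rose by a log2 fold change of 1.16 ± 0.15 (SE, adjusted p = 0.000441) without CFW, 2.23-fold, and by 1.93 ± 0.15 (adjusted p = 2.95e-05) with CFW, 3.8-fold. CFW raised it in mub1Δ by 0.86 ± 0.15 (adjusted p = 0.0039), and the wild-type estimate was 0.09 ± 0.15 (adjusted p = 0.707). The calls in mub1Δ held in every alternative run. The interaction was 0.77 ± 0.21 with an adjusted p of 0.0803; it passed by DESeq2 (0.76), with a replicate block whose wild-type CFW numbers were crossed (0.79) and without wild-type replicate 1 (1.02) or replicate 2 (0.54) with CFW.

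RPS28A, the more abundant copy, moved the other way. It had 686.6 and 706.4 CPM in wild type without CFW and 818.9 and 699 with it, against 412.8 and 451.3 in mub1Δ without CFW and 598.5 and 541.5 with it. All mub1Δ libraries were below all wild-type libraries. RPS28A fell by 0.69 ± 0.11 (adjusted p = 0.000987) in mub1Δ without CFW and by 0.41 ± 0.11 (adjusted p = 0.0144) with CFW, and CFW raised it in mub1Δ by 0.40 ± 0.11 (adjusted p = 0.0226). The call with CFW was lost without mub1Δ replicate 2 with CFW (-0.34) and with only the 4 libraries compared (-0.41), and the CFW call in mub1Δ was lost without any of the 4 mub1Δ libraries, at 0.33 to 0.47.

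The 2 copies together gave 715.9 and 739.9 CPM in wild type without CFW, 858 and 726.9 with CFW, 477.2 and 526.8 in mub1Δ without CFW and 731.4 and 663 with it. The share of RPS28B in the pair's counts was lowest in wild type with CFW, replicate 2, at 3.84% (Wilson 95% interval 3.57% to 4.12%), and highest in mub1Δ with CFW, replicate 2, at 18.3% (17.8% to 18.9%). It did not exceed 4.55% in any wild-type library and was at least 13.5% in every mub1Δ library. The mRNA of EDC3, the decapping activator that acts on RPS28B, fell by 0.21 ± 0.07 (adjusted p = 0.0256) in mub1Δ without CFW and was at 0.03 ± 0.07 (adjusted p = 0.765) with CFW. DCP2, the decapping enzyme, was at -0.03 ± 0.07 and -0.01 ± 0.07 in the same comparisons, and neither passed.

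To compare copies without scaling between libraries, the log2 ratio of the counts of A over B was taken within each library. For RPS28 it was 4.55, 4.40, 4.39 and 4.65 in the 4 wild-type libraries and 2.68, 2.58, 2.17 and 2.16 in the 4 mub1Δ libraries, a difference of -2.10 or 4.29-fold. The genotypes did not overlap in 11 of 24 pairs (45.8%; 34.3% of 35 large-subunit pairs), each with the smallest p that 4 against 4 libraries allow (0.0286, exact two-sided permutation test of 70 arrangements). None passed after adjustment over the 48 ratio tests (adjusted p = 0.114). For genotype alone this was fixed in advance, since even all 24 pairs at that smallest p would not have passed. The adjusted value therefore does not speak to whether the ratios differ. In 8 of the 11, B gained on A in mub1Δ, and in 3, A gained on B; in 8 of the 11 the copy with the lower level gained. Over all 24 pairs the copy with the lower level gained in 10. By medium, 1 pair of 24 did not overlap (RPS25, 4.17%; 14.3% of the large-subunit pairs); this count became 5 without wild-type replicate 1 with CFW, 3 without mub1Δ replicate 1 lacking CFW, and 2 without wild-type replicate 2 lacking CFW, mub1Δ replicate 2 lacking CFW or either mub1Δ library with CFW. When libraries were permuted within each strain alone, 9 pairs reached the smallest exact p by medium (0.0556), and with the replicate block 11 did (smallest exact p 0.125).

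**Figure D3:**
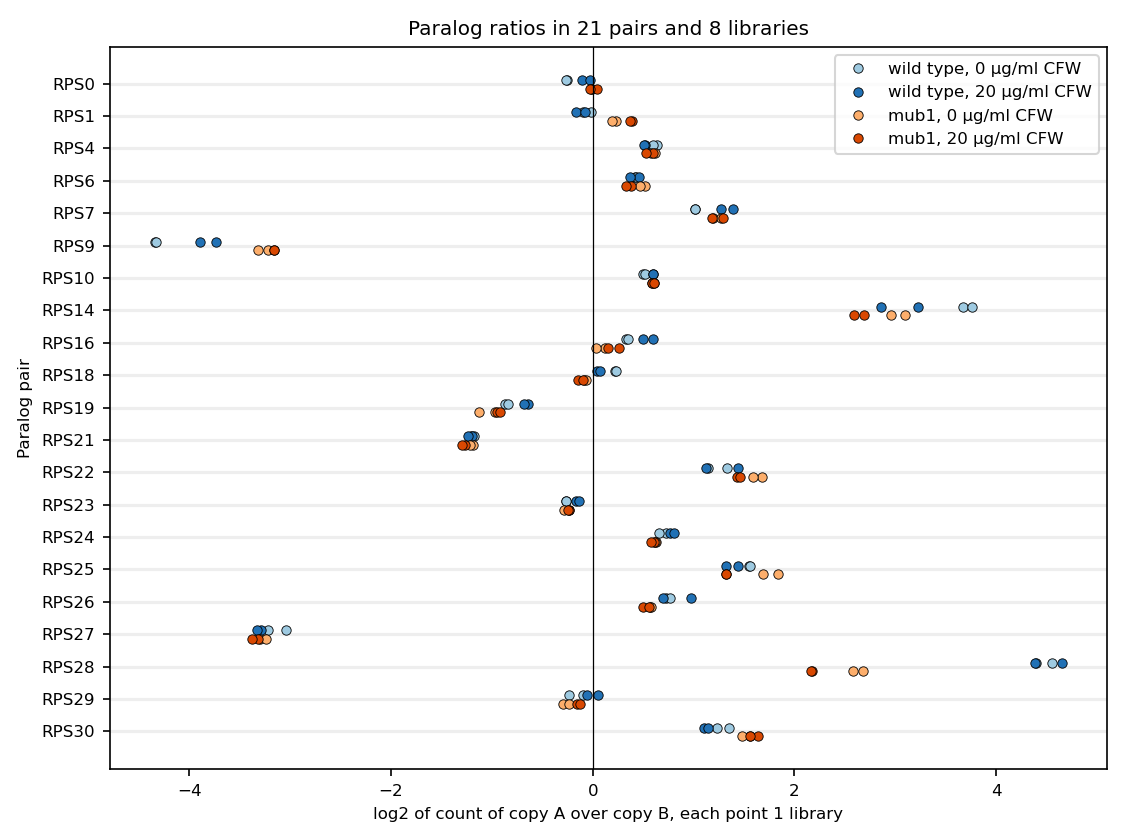
Log2 of the count of copy A over that of copy B in each library, for 21 of the paralog pairs; each point is 1 library and colours show the 4 groups. RPS28 shows the widest gap between genotypes, with wild type at 4.39 to 4.65 and mub1Δ at 2.16 to 2.68.

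RPS9 was next among the pairs whose genotypes did not overlap. Rps9 is a core protein needed for accurate decoding, and RPS9A (YPL081W) is the minor copy of RPS9B (YBR189W). The log2 ratio of RPS9A over RPS9B was -4.34, -4.33, -3.89 and -3.74 in wild type and -3.32, -3.22, -3.16 and -3.16 in mub1Δ, a difference of 0.86 or 1.81-fold. RPS9A had 67.55 and 75.5 CPM in wild type without CFW, 101.1 and 86.42 with it, 99.64 and 111.6 in mub1Δ without CFW and 139.6 and 135.1 with it. In each medium the mub1Δ libraries were above the wild-type ones, and in each strain those with CFW were above those without. In mub1Δ it rose by 0.56 ± 0.10 (adjusted p = 0.0018) without CFW and by 0.55 ± 0.10 (adjusted p = 0.00225) with CFW. CFW raised it by 0.39 ± 0.10 (adjusted p = 0.0248) in wild type and 0.38 ± 0.10 (adjusted p = 0.0193) in mub1Δ. The wild-type call was lost with only the 4 libraries compared (0.41) and without wild-type replicate 1 (0.32) or 2 (0.47) lacking CFW, and the mub1Δ call without mub1Δ replicate 1 lacking CFW (0.30) or mub1Δ replicate 1 (0.36) or 2 (0.40) with CFW. RPS9B had 1367 and 1516 CPM in wild type without CFW, 1499 and 1151 with it, 998.3 and 1041 in mub1Δ without CFW and 1249 and 1203 with it. The groups without CFW did not overlap, and RPS9B fell by 0.50 ± 0.13 (adjusted p = 0.0145); this call was lost without wild-type replicate 2 (-0.42) or mub1Δ replicate 1 (-0.47) or 2 (-0.53) lacking CFW.

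In RPS14 the ratio differed by similar amounts by genotype and by medium, though neither difference passed. Rps14 lies on the platform of the subunit. The log2 ratio of RPS14A over RPS14B was 3.67 and 3.76 in wild type without CFW, 3.23 and 2.86 with it, 3.10 and 2.96 in mub1Δ without CFW and 2.59 and 2.69 with it. The difference was -0.55 by genotype (exact permutation p = 0.0857) and -0.53 by medium (exact permutation p = 0.114), and the 4 libraries of each side overlapped in both. RPS14B (YJL191W) had 112.4 and 114.3 CPM in wild type without CFW, 153.7 and 159.4 with it, 121.7 and 138 in mub1Δ without CFW and 192.9 and 182.8 with it. Within each strain the libraries with CFW were all above those without. CFW raised RPS14B by 0.47 ± 0.08 (adjusted p = 0.00441) in wild type and by 0.53 ± 0.08 (adjusted p = 0.00199) in mub1Δ. The wild-type call was lost without wild-type replicate 1 lacking CFW (0.46). In mub1Δ it rose by 0.26 ± 0.08 (adjusted p = 0.0245) with CFW, lost without wild-type replicate 1 (0.25) or 2 (0.26) lacking CFW or mub1Δ replicate 1 (0.22) or 2 (0.30) with CFW, and with only the 4 libraries compared (0.26). RPS14A (YCR031C) fell by 0.49 ± 0.12 (adjusted p = 0.00948) in mub1Δ without CFW, from 1426 and 1547 to 1040 and 1071 CPM, which was lost without wild-type replicate 2 (-0.43) or mub1Δ replicate 1 (-0.47) lacking CFW. With CFW it had 1438 and 1160 CPM in wild type and 1159 and 1178 in mub1Δ, and the groups overlapped.

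**Figure D4:**
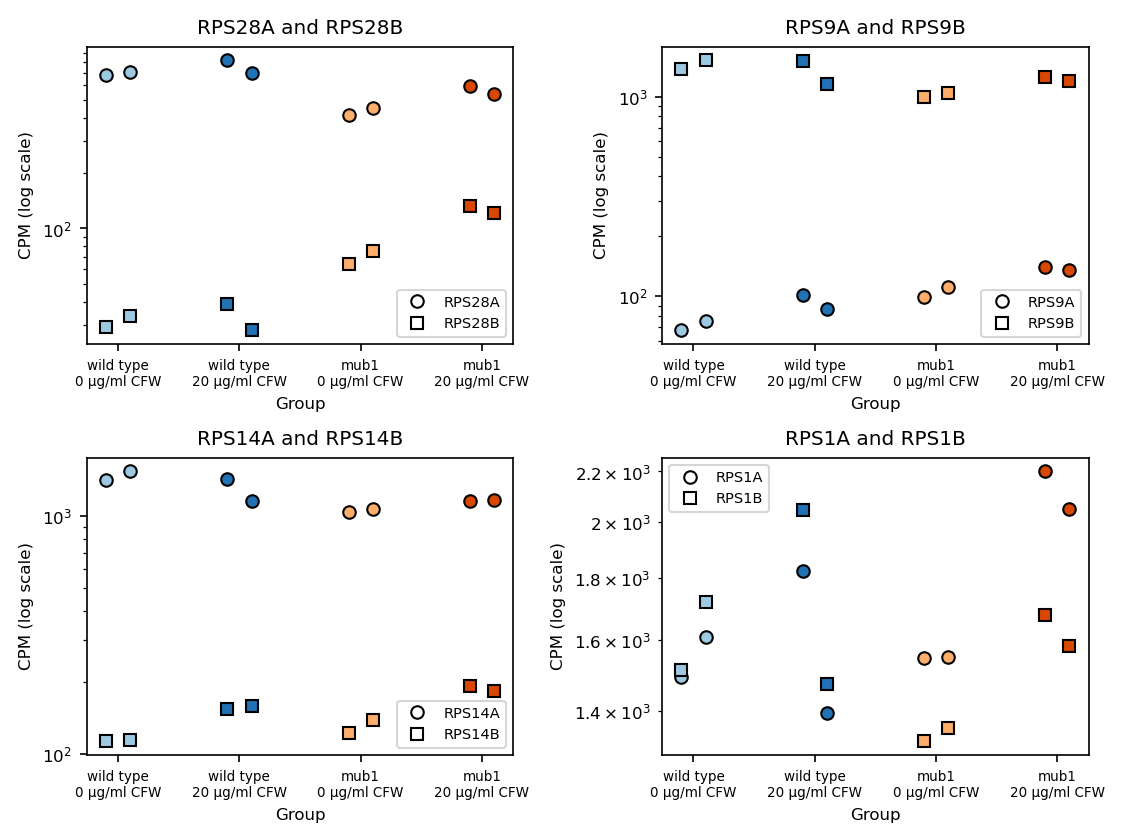
Level in CPM on a log axis of both copies of RPS28, RPS9, RPS14 and RPS1, with each point 1 library of the 4 groups. RPS28B lies at 27.88 to 39.08 CPM in wild type and at 64.39 to 132.9 in mub1Δ, while RPS28A is lower in every mub1Δ library than in any wild-type one.

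RPS20 (YHL015W), a head protein that the ligase Hel2 ubiquitylates on stalled ribosomes, had 2250 and 2339 CPM in wild type and 1448 and 1523 in mub1Δ without CFW. The groups did not overlap, and RPS20 fell by 0.63 ± 0.12 (adjusted p = 0.00324). With CFW it had 2318 and 1885 CPM in wild type and 1703 and 1753 in mub1Δ, which did not pass (-0.28 ± 0.12, adjusted p = 0.103) but passed by DESeq2 (-0.29) and without wild-type replicate 2 with CFW (-0.42). RPS31 (YLR167W) encodes a ribosomal protein fused to ubiquitin and had the highest mean level per kilobase of coding length of the members, at 7482 CPM per kb. It had 3387 and 3666 CPM in wild type without CFW, 4206 and 3374 with it, 2637 and 2704 in mub1Δ without CFW and 3839 and 3662 with it. The mub1Δ libraries without CFW were below all others. It fell by 0.40 ± 0.13 (adjusted p = 0.0366) in mub1Δ without CFW and rose with CFW in mub1Δ by 0.49 ± 0.13 (adjusted p = 0.0248). The first call was lost without any of the 4 libraries lacking CFW (-0.45 to -0.34) or either mub1Δ library with CFW (-0.40) and with the replicate block (-0.40), and the second without any library other than the wild-type ones with CFW (0.46 to 0.52). UBI4, which encodes polyubiquitin, rose by 0.80 ± 0.11 (adjusted p = 0.000467) in mub1Δ without CFW and by 0.38 ± 0.11 (adjusted p = 0.0214) with it. The fusion genes RPL40A and RPL40B of the large subunit did not pass in either, at -0.30 and -0.26 without CFW.

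RPS22B (YLR367W), whose intron holds the small nucleolar RNA gene SNR44, is the only member that overlaps another annotated gene, so reads of the 2 may be mixed. It had 274.4 and 274.6 CPM in wild type without CFW, 311.4 and 267.8 with it, 168.7 and 191 in mub1Δ without CFW and 278 and 254.4 with it. The mub1Δ libraries without CFW were below all others. RPS22B fell by 0.61 ± 0.10 (adjusted p = 0.00105) in mub1Δ without CFW and rose by 0.57 ± 0.10 (adjusted p = 0.0037) with CFW in mub1Δ. With CFW the genotypes differed by -0.12 ± 0.10 (adjusted p = 0.35), which passed without wild-type replicate 2 with CFW (-0.23). RPS25B (YLR333C), whose protein takes part in initiation at internal ribosome entry sites, had 309.3 and 323.1 CPM in wild type without CFW, 418.9 and 323.3 with it, 210.2 and 245.1 in mub1Δ without CFW and 370.7 and 347.5 with it. Here too the mub1Δ libraries without CFW were the lowest. It fell by 0.47 ± 0.12 (adjusted p = 0.0134) in mub1Δ without CFW, lost without wild-type replicate 1 (-0.50) or 2 (-0.44) or mub1Δ replicate 1 (-0.37) lacking CFW, and rose with CFW in mub1Δ by 0.66 ± 0.12 (adjusted p = 0.00583), lost without mub1Δ replicate 1 lacking CFW (0.55). In the ratio of RPS25A over RPS25B the libraries with CFW were all below those without, by -0.31 (exact permutation p = 0.0286, adjusted p = 0.114). As by genotype, the adjusted value could not have passed by medium alone.

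RPS30B (YOR182C), a copy of the small protein Rps30, had 307.9 and 347.4 CPM in wild type without CFW, 417.5 and 364.3 with it, 216.9 and 250 in mub1Δ without CFW and 300 and 288.8 with it. All mub1Δ libraries were below all wild-type libraries. It fell in mub1Δ by 0.49 ± 0.10 (adjusted p = 0.00464) without CFW and by 0.41 ± 0.10 (adjusted p = 0.0127) with it, and rose with CFW in mub1Δ by 0.33 ± 0.10 (adjusted p = 0.0386). The first was lost without wild-type replicate 2 (-0.40) or mub1Δ replicate 1 (-0.39) lacking CFW, the second without mub1Δ replicate 1 (-0.44) or 2 (-0.38) with CFW. The third was lost without any library except wild type with CFW and mub1Δ replicate 2 lacking CFW, at 0.24 to 0.36, and with the replicate block (0.34). RPS1A (YLR441C), a copy of a platform protein, had 1493 and 1610 CPM in wild type without CFW, 1823 and 1394 with it, 1546 and 1551 in mub1Δ without CFW and 2200 and 2051 with it. The 2 mub1Δ libraries with CFW were the highest. It rose in mub1Δ with CFW by 0.40 ± 0.14 (adjusted p = 0.0449), and with CFW in mub1Δ by 0.46 ± 0.14 (adjusted p = 0.0345). The first call was lost under upper quartile scaling (0.40), with the replicate block (0.41), with only the 4 libraries compared (0.40) and without any library except wild-type replicate 1 with CFW (0.22 to 0.45), and the second without any library other than the wild-type ones with CFW (0.41 to 0.51).

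Among the other pairs reported here whose genotypes did not overlap, the differences over both media were smaller than for RPS9. The log2 ratio of A over B was higher in all 4 mub1Δ libraries than in all 4 wild-type libraries for RPS1 (0.39) and RPS30 (0.35). It was lower in all 4 for RPS16 (-0.31), RPS18, RPS19 and RPS26 (-0.24 each) and RPS24 (-0.13). Taken by medium, the difference was 0.27 without CFW and 0.50 with it for RPS1, and 0.23 and 0.47 for RPS30. For RPS22, whose libraries overlapped by genotype, it was 0.40 and 0.17. The median size of the difference over the 24 pairs was 0.20 by genotype and 0.11 by medium, on the log2 scale. Copies that share long runs of sequence are less certain: of the windows of 150 bases in the coding sequence, both copies shared 40% for RPS6, 1.41% for RPS4 and 1.16% for RPS24. Per kilobase of coding length, A had the higher level in 17 pairs and B in 7, and the copies lay within 2-fold of each other in 14 pairs.

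Genes that act on or with the small subunit were read from lists. Of 20 assembly factors, 8 fell and none rose in mub1Δ without CFW (median -0.33), among them the helicase gene PRP43 (-0.99 ± 0.15, adjusted p = 0.000792), the kinase gene RIO2 (-0.74 ± 0.10, adjusted p = 0.000456) and KRR1 (-0.59 ± 0.12, adjusted p = 0.00333). With CFW in mub1Δ, 14 of the 20 rose and none fell (median 0.45), a share called of 70% against 27.7% of all genes (13.8% higher). These included TSR2, the escort of Rps26 (0.85 ± 0.14, adjusted p = 0.00365), RRP12 (0.69 ± 0.15, adjusted p = 0.00988) and NOB1, the nuclease that forms the 18S rRNA end (0.51 ± 0.07, adjusted p = 0.00186). Of 26 regulators of ribosomal protein genes, 7 rose and 5 fell in mub1Δ without CFW (median 0.03). The smallest adjusted p-values were those of MRS6 (-0.44 ± 0.08, adjusted p = 0.00244), GCN4 (0.50 ± 0.10, adjusted p = 0.0031), TPK2 (0.39 ± 0.09, adjusted p = 0.00541) and DOT6 (-0.42 ± 0.09, adjusted p = 0.00568). Of the regulators introduced earlier, IFH1 rose by 0.58 ± 0.14 (adjusted p = 0.0102) and SFP1, an activator, by 0.29 ± 0.08 (adjusted p = 0.0131). FHL1 fell by 0.33 ± 0.10 (adjusted p = 0.0229) and RAP1 by 0.30 ± 0.08 (adjusted p = 0.0146). With CFW in wild type, 4 of the 26 rose and 4 fell (30.8% called, against 19% of all genes). The largest estimates in each direction were IFH1 (0.85 ± 0.14, adjusted p = 0.00444) and CRF1, a corepressor at these promoters (0.72 ± 0.13, adjusted p = 0.0069), among those that rose, and the deacetylase gene RPD3 (-0.39 ± 0.07, adjusted p = 0.00456) and ABF1 (-0.35 ± 0.10, adjusted p = 0.0392) among those that fell. Of 16 partners and readers of the 40S subunit, 8 fell and none rose in mub1Δ without CFW (median -0.24). GCN20 (-0.84 ± 0.06, adjusted p = 2.05e-05) and GCN1 (-0.61 ± 0.09, adjusted p = 0.000846), which activate Gcn2 on stalled ribosomes, and HEL2 (-0.48 ± 0.08, adjusted p = 0.00186) were among them. The share called over these lists was 40% for assembly factors, 46.2% for regulators and 50% for partners in that comparison, against 42.9% of all genes. Unlike the counts of members, the counts and genes of these lists were not followed under the alternatives or with libraries left out.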

How the data were processed

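RNA was extracted with hot phenol and made into stranded, poly(A)-enriched libraries read in pairs, per the labels' protocols. Per the submitters' processing notes, FastQC 0.12.1, HISAT2 2.2.1, build R64 and featureCounts 2.0.3 were used. The values deposited by the authors are unscaled counts, whole numbers for each gene and library. The strand setting of the counting and the treatment of overlapping genes and of reads with several alignments are not given in the sources used here, so values of near-identical copies are uncertain.

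Gene symbols were looked up by systematic name in RefSeq's annotation of R64 (5864 of 6534 found, with all 56 members). Counts were tested with edgeR 4.0.16 (R 4.3.3): filterByExpr kept 5954 genes and left out 580, TMM factors were 0.9793 to 1.024, and robust quasi-likelihood F tests used 4 group means over 8 libraries (4 residual degrees of freedom). The Benjamini-Hochberg adjustment ran over all 5954 genes, with a threshold of 0.05. Standard errors (SE) were taken as the size of the log2 fold change over the root of its F value. CPM values used TMM-scaled library sizes. Ratios of copies used counts plus 0.5 and exact two-sided permutation tests of 4 against 4 libraries, since 2 against 2 cannot go below p = 0.333 (SciPy 1.17.1). Identity, shared windows and motifs came from the R64 sequence (Biopython 1.88). The edgeR fit was checked on simulated counts in which genes varied independently. That check does not cover counts of members that move together between libraries.

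Alternatives were DESeq2 1.42.0, other scalings, no filter, no robust step, a replicate block, only the 4 libraries compared and each library left out. Genes given in full were the members with the largest called changes (mean of at least 10 CPM), those called against the majority, both copies of the pairs with the largest ratio differences, and the most abundant member. Some members that this rule names, and some others, are not reported here, but all 56 enter the counts and medians. The members, lists and classes were chosen with earlier results of these data known.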

Additional observations from a re-analysis of the deposited data

How the results depend on the processing

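No call of the members whose values are given library by library reversed direction under the alternatives run; the other members were not followed one by one. Left-out libraries moved the counts of members called most: 5 to 45 in mub1Δ against wild type without CFW (25), 2 to 26 with CFW (6), 1 to 24 for CFW in wild type (2), 3 to 50 for CFW in mub1Δ (18) and 0 to 40 for the interaction (0). The member medians then ran from -0.36 to -0.23, -0.21 to 0.11, -0.12 to 0.23, 0.25 to 0.35 and 0.10 to 0.43. In the 2 comparisons that use wild type with CFW as a group, and in the interaction, the wild-type libraries with CFW moved the median farthest. For CFW in wild type it was -0.12 without replicate 1 and 0.23 without replicate 2; the cause was not tested. DESeq2 called 10 with CFW, 29 for CFW in mub1Δ and 2 for the interaction. With only the 4 libraries compared, the first 4 counts were 44, 3, 1 and 50. With the replicate block they were 23, 5, 2 and 14, with 0 for the interaction. Same-numbered libraries deviated together with correlations of -0.189 to 0.245, not all above 0.1, so the numbers were not taken as pairing. Crossing the numbers of wild type with CFW, an alternative chosen after seeing the data, gave 31, 6, 2, 23 and 1. Pairs whose ratio did not overlap by genotype numbered 11 to 13 (11) with a library left out, and by medium 1 to 5 (1). Pairs at the smallest exact p numbered 9 by medium when permuted within each strain, and 14 by genotype and 11 by medium with the replicate block. Counting error is small at these depths, and the 2 libraries per group limit the precision.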
